A study of Hevea brasiliensis with 21 samples.

Results

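The 209 contigs described here were drawn from the 86941 contigs of the PB 260 latex reference transcriptome of the rubber tree, Hevea brasiliensis. In latex of clone PB260 they were low under ethephon in trees with slight tapping panel dryness (TPD) and higher in ethephon-treated trees with severe TPD. Levels are given as CPM, the read pairs counted on a contig per 1000000 pairs counted in the library. The members were chosen by these PB260 levels alone: a contig was taken when its control mean was at least 2 CPM and at least 2-fold its mean under ethephon alone, when its severe TPD mean was at least 2-fold that same mean, and when every ethephon-only library lay below every control and every severe TPD library. The PB260 values below therefore describe what was selected and carry no test, whereas the rule used no PB217 library.

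The study sequenced polyA RNA of latex from 21 trees, 1 library a tree, in 7 groups of 3. In clone PB260, at month 36 of tapping, the groups were severe TPD trees given 12 ethephon applications a year, slight TPD trees given the same ethephon, and slight TPD trees without ethephon (control), all wild type and labelled S_D2. Per the study's methods the bark of the PB260 trees was cut along a semi-spiral every 2 days. In clone PB217, labelled T_D1, a code not explained in the sources used here, the groups were TPD trees with 12 applications a year at month 36, control trees without ethephon at month 36, ethephon-treated trees at month 1 and control trees at month 1. GEO's labels call every group other than the 2 TPD groups healthy, and the study's text counts the PB260 control and ethephon-only trees as slight TPD. Severe and slight TPD trees with ethephon shared a harvest day in PB260, and so did both month 1 groups of PB217. At month 36 the controls of both clones were tapped for RNA on an earlier day than the ethephon-treated and TPD trees, so harvest day and treatment cannot be told apart there. PB217 had no ethephon-treated tree without TPD at month 36, and its TPD group therefore carries 36 months of ethephon as well.

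Rubber is made in laticifers, tubular cells of the inner bark whose fluid content drains as latex once they are opened with a knife. Ethephon breaks down to the plant hormone ethylene, and planters paint it on the bark for a higher yield. A tree with TPD gives latex along a part of its cut or not at all. ABC transporters, the family of 1 annotated member, move substrates across membranes with energy from ATP, and rectifying potassium channels, the family of another, pass K+ mainly in 1 direction across a membrane.

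Each library held between 16102321 and 23126417 counted pairs, and between 95.1 and 97.7% of reads mapped. The HbTCTP1 contig CL1Contig7138, a translationally controlled tumour protein transcript that the study followed in latex, lay at 1404 to 3560 CPM in all 21 libraries. The study's other HbTCTP1 contig, CL1Contig21026, lay at 1.72 to 15.4 CPM. The 3 contigs annotated to photosynthesis, as markers of green bark cells, summed to 0.151 to 0.751 CPM, and the 64 contigs with a best match to powdery mildew or other fungi, of which 10 had pairs, summed to 4.03 to 22.1 CPM. No contig with a held annotation named rubber elongation factor, hevein or another laticifer marker, so the tissue was checked no further. In PB217 TPD replicate 2 stood apart: the chi-square over contigs per degree of freedom was 23.6 for replicates 1 and 3 but 66.8 and 100 for the pairs with replicate 2. In PB260 severe TPD it was 20.8 against 46.5 and 30.7. Replicates 1 and 3 differed as widely in PB260 controls (46.2), and by 33.7 in PB217 month 1 controls. PB260 control replicate 1 was the lowest of its group for 126 members, and PB217 month 1 control replicate 3 the highest for 142. Replicate 2 of PB217 month 1 ethephon stood apart as well, with 8.19 for replicates 1 and 3 against 33.1 and 19.6, and was the lowest of its group for 140 members. PB217 TPD replicate 2 was the lowest of its group for 84.2% of the members and for 27.6% of all contigs tested at month 36.

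Of the 209 members, 4 had an entry in the annotation held here, which covers 2148 contigs, and 2 had an informative one. They were CL1080Contig4, with a best match to an ABC transporter family protein of Hevea brasiliensis, and CL10139Contig1, with a best match to a K+ rectifying channel family protein of Populus trichocarpa. CL10045Contig2 matched a hypothetical protein of Jatropha curcas and CL10433Contig1 had no match. The held entries annotated 49 contigs as transporters or channels, of which 3 met the first part of the rule (control at least 2-fold over ethephon with no overlap) and 2 were members. None of the other keyword lists held a member, including 60 contigs of transcription factors, 79 of kinases and phosphatases, 59 of oxidation and reduction enzymes and 12 of defence proteins. For the remaining members only the contig name is known, and no role is given to them.

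The rule was met by 209 contigs, and with the control or the severe TPD group in the place of the low group it was met by 1486 and 73 contigs. Near the level threshold, CL1Contig2881 and CL10139Contig1 entered with control means of 2.005 and 2.015 CPM, while CL946Contig4 and CL2246Contig2 stayed out with 1.93 and 1.99 CPM. Near the ethephon threshold the control mean was 2.004- and 2.028-fold the ethephon mean in the members CL7516Contig1 and CL1Contig12354, and 1.94- and 1.96-fold in CL311Contig11 and CL6305Contig2 outside it. For severe TPD over ethephon, CL597Contig3 and CL1Contig14958 entered at 2.001- and 2.002-fold, and CL7871Contig2 and CL5023Contig1 stayed out at 1.999-fold each. Taking TMM-normalized CPM gave 394 contigs, all 209 members among them, and folds of at least 3 gave 64.

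In PB260 the median member lay at 5.18, 5.25 and 5.67 CPM in the severe TPD libraries, 1.98, 1.93 and 1.54 CPM with ethephon alone, and 7.81, 10.4 and 11.9 CPM in control libraries. The severe TPD median was thus between the other groups in every library. Ethephon alone held the members at a median of 18.7% of their control mean (quartiles 11.5 and 29.9%), and severe TPD at 53.1% (32.2 and 81.8%). On the log2 scale, severe TPD lay a median 63.5% of the way from the ethephon mean to the control mean. The groups were different trees, each sampled once, so no fall or rise within a tree was observed. In latex, fewer cells of a type and less RNA per cell cannot be told apart in such levels.

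**Figure D1:**
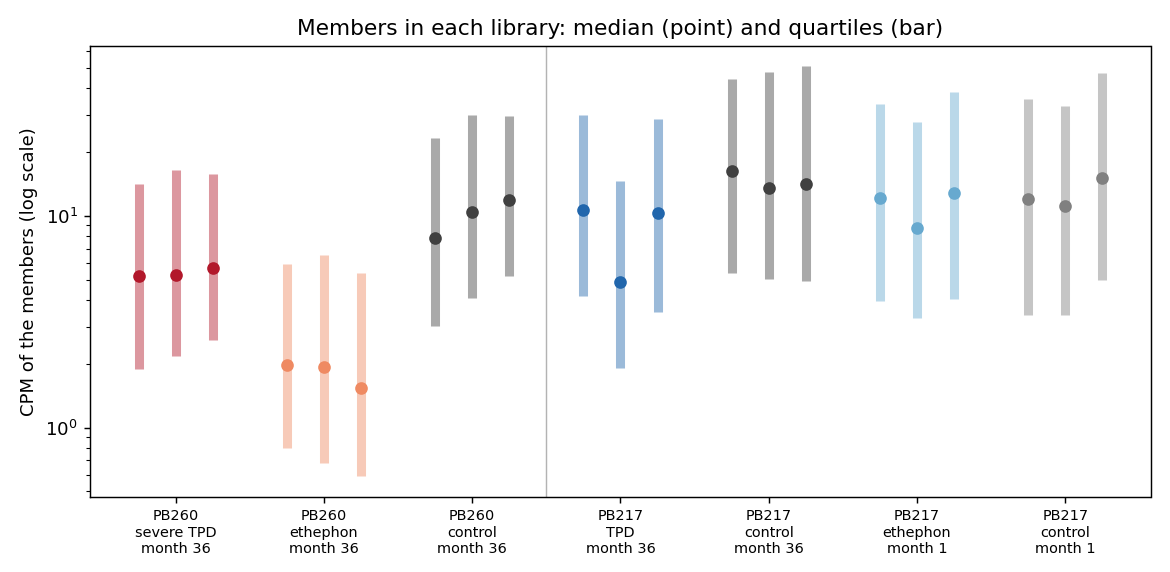
Median (points) and quartiles (bars) of the CPM of the 209 members in each of the 21 libraries, by group, on a log scale. PB260 medians ran from 1.54 to 1.98 CPM with ethephon alone against 7.81 to 11.9 CPM in controls, and the lowest PB217 median, 4.88 CPM, was TPD replicate 2.

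Severe TPD means mostly lay between the ethephon and control means. The severe TPD mean exceeded the control mean in 30 of the 209 members and stayed under 50% of it in 93. Every severe TPD library lay below every control library in 104 members (49.8%) and above in 4 (1.91%), where these shares were 83.3 and 0.0% in the 1691 other contigs that met the ethephon part of the rule and 18.9 and 18.6% in the 24813 contigs with a control mean of at least 2 CPM. The rule set levels in this contrast, and nothing is read from the shares. The control mean was at least 5-fold the ethephon mean in 113 members and at least 10-fold in 39, while severe TPD reached at least 5-fold of ethephon in 21 and 10-fold in 8. The spread between trees was alike in the 3 groups, with a median SD of 29.0% of the mean in severe TPD, 29.3% with ethephon alone and 27.9% in controls.

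The 1691 other contigs that met the ethephon part of the rule serve as the nearest comparison. Their median was 42% of control in severe TPD and 37.0% of control with ethephon alone. On the log2 scale, their severe TPD mean lay a median 18.7% of the way from the ethephon mean to the control mean. In all 24813 contigs with a control mean of at least 2 CPM the median was 96.8% of control in severe TPD and 111% with ethephon alone. Of the 1691, 76 reached a severe TPD mean 2-fold over ethephon but with overlapping libraries. Members were close to the other sets in length, with a median of 1077 bases against 1061 for the other ethephon-low contigs and 1127 for all at that level, and a median control level of 9.93 CPM against 13.2 and 10.5 CPM.

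**Figure D2:**
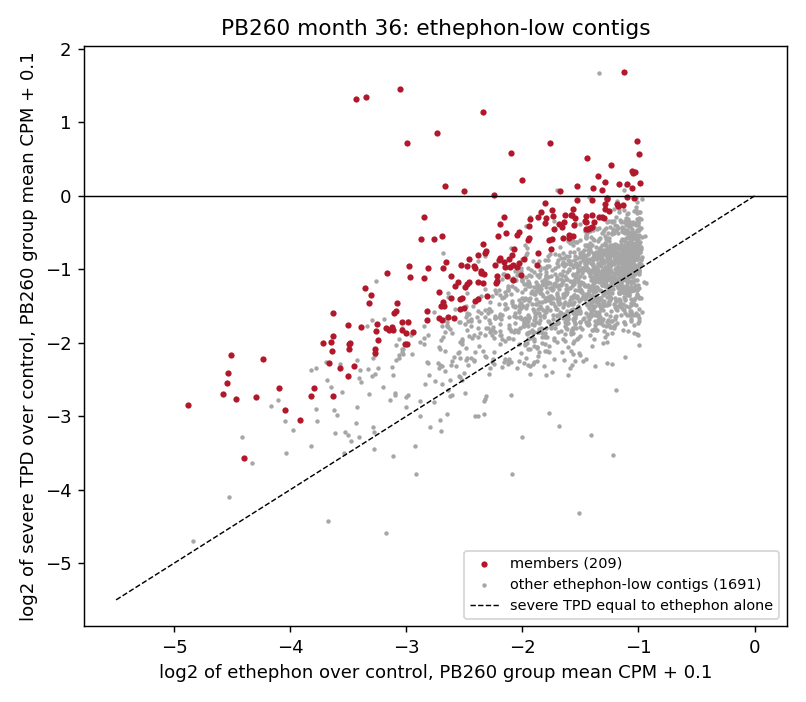
log2 ratios of PB260 group means (CPM + 0.1) over the control mean, ethephon alone on the x axis and severe TPD on the y axis, for the 209 members and the 1691 other ethephon-low contigs. The members lie above the dashed line of equal ethephon and severe TPD levels because the rule required it, and 30 of them lie above 0, the control level.

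Contigs of 1 sequence cluster (the CL number) can be parts or copies of the same gene, so members are not independent. Cluster CL1, which is large, held 75 members (35.9%), a share close to its 36.4% of the 24813 contigs, and 17 other clusters held 2 members each. Pairs that mapped equally well to several contigs were removed in counting, and 19.1 to 24% of reads were marked as multi-hits, so the level of a contig with a near copy is uncertain.

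The 10 members with the highest control means in PB260 had 266 to 866 CPM there, and 6 of them belong to CL1. Per kilobase, the highest control levels were those of CL1Contig12685 with 1096 CPM per kb, CL1Contig9964 with 510, CL1Contig9774 with 504 and CL1Contig10652 with 358. CL1Contig12685 had 632, 860 and 680 CPM in severe TPD, 163, 397 and 275 CPM with ethephon alone and 1065, 1005 and 527 CPM in controls. Severe TPD and control libraries overlapped, and ethephon libraries lay below both. In PB217 this contig had 552, 209 and 675 CPM in TPD trees, 1879, 1268 and 1493 CPM in month 36 controls, 920, 1300 and 1069 CPM in month 1 ethephon trees and 1094, 975 and 940 CPM in month 1 controls. Its TPD libraries were the lowest of PB217, with no overlap with any other group.

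CL1Contig9826 and CL1Contig10652 lay further below control in severe TPD than CL1Contig12685 did. CL1Contig9826 averaged 68.3 ± 6.16 CPM in severe TPD, 25.9 ± 6.18 CPM with ethephon alone and 330 ± 109 CPM in controls (SD, n = 3 each), and CL1Contig10652 averaged 68.0 ± 22.0, 18.3 ± 1.77 and 440 ± 236 CPM in those groups. Their severe TPD means were 20.7 and 15.5% of control, and no severe TPD library reached the lowest control library. In PB217, CL1Contig9826 had 180, 192 and 260 CPM in TPD trees against 1154, 889 and 819 CPM in month 36 controls, and CL1Contig10652 had 109, 80.0 and 171 CPM against 473, 376 and 594 CPM. The PB217 groups did not overlap for either contig.

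**Figure D3:**
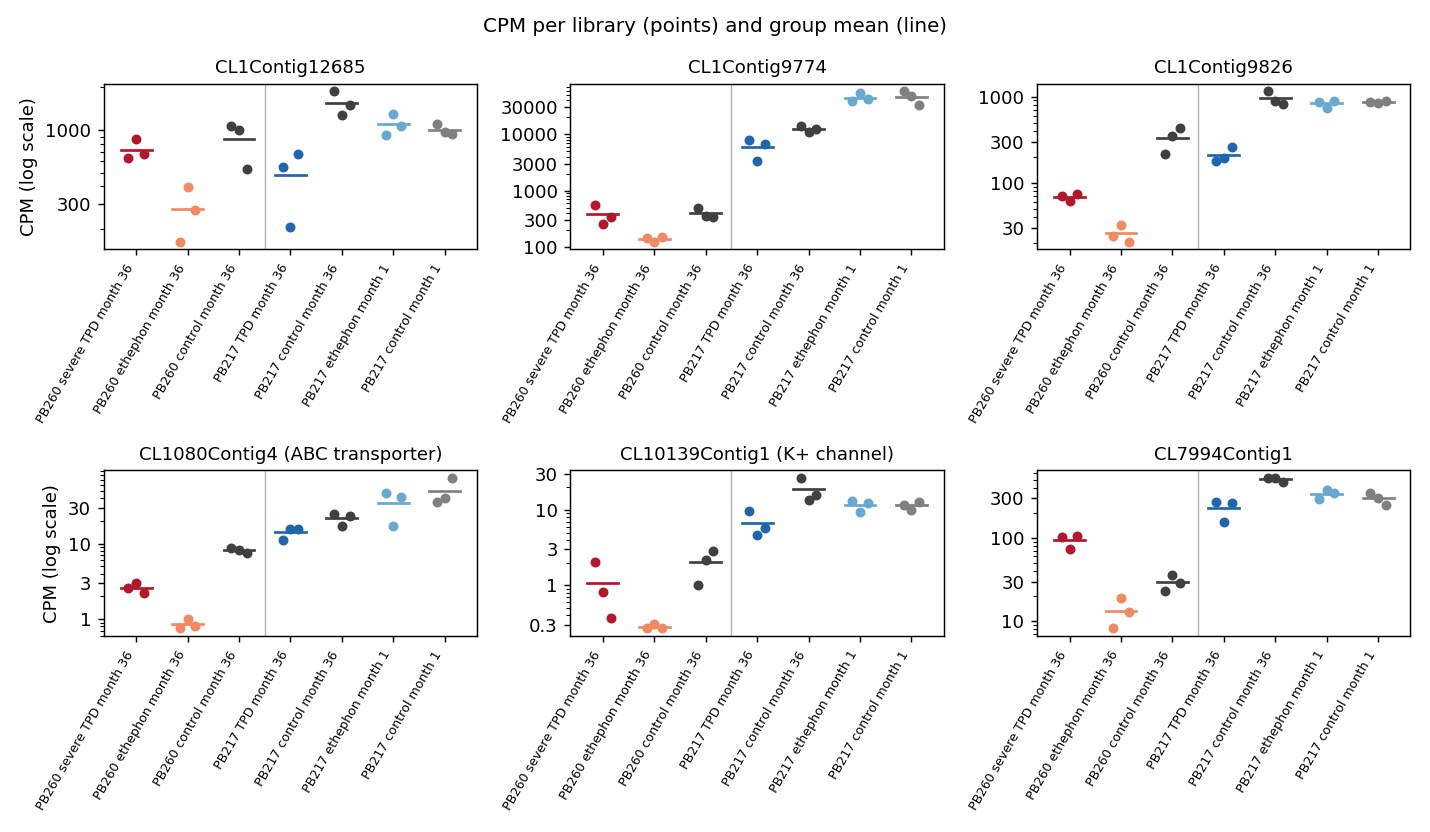
CPM in each of the 21 libraries (points, log scale) and group means (lines) of 6 members, with PB260 groups left of the grey line and PB217 groups right of it. PB217 TPD libraries lie below PB217 month 36 control libraries in all 6 contigs, and CL7994Contig1 is the panel in which PB260 severe TPD libraries (73.1 to 106 CPM) lie above PB260 controls (23.2 to 35.8 CPM).

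The ABC transporter contig CL1080Contig4 had 2.61, 2.98 and 2.22 CPM in severe TPD, 0.750, 0.994 and 0.817 CPM with ethephon alone and 8.69, 8.15 and 7.45 CPM in PB260 controls. Severe TPD libraries were all above ethephon and all below control libraries. In PB217 it had 11.2, 15.6 and 15.6 CPM in TPD trees, 24.7, 17.3 and 23.1 CPM in month 36 controls, 46.8, 17.0 and 40.7 CPM in month 1 ethephon trees and 35.0, 40.1 and 74.0 CPM in month 1 controls. TPD and control libraries did not overlap at month 36, while the month 1 groups did. Its cluster mate CL1080Contig7, annotated as a multidrug resistance protein and no member, had 1.62, 0.909 and 0.900 CPM in severe TPD, 0.857, 0.683 and 0.953 CPM with ethephon alone and 4.92, 5.85 and 5.27 CPM in PB260 controls. In this mate severe TPD and ethephon libraries overlapped. CL1080Contig1 and CL1080Contig2, no members, shared the ABC transporter annotation. In PB260, CL1080Contig2 averaged 1.04 CPM in severe TPD, 1.81 CPM with ethephon alone and 1.41 CPM in controls, so its mean was not lower with ethephon. CL1080Contig1 averaged 0.195, 0.105 and 0.583 CPM in those groups.

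The K+ channel contig CL10139Contig1 was among the lowest members in PB260, with 2.03, 0.808 and 0.371 CPM in severe TPD, 0.268, 0.311 and 0.272 CPM with ethephon alone and 1.01, 2.15 and 2.89 CPM in controls. Severe TPD replicate 1 lay within the control range and replicate 3 close to the ethephon libraries. Levels were higher in PB217, with 9.68, 4.70 and 5.75 CPM in TPD trees, 26.5, 13.5 and 15.8 CPM in month 36 controls, 13.1, 9.38 and 12.1 CPM in month 1 ethephon trees and 11.5, 10.1 and 12.9 CPM in month 1 controls. TPD trees at month 36 lay below all their controls, and both month 1 groups covered nearly the same range. The other contig of its cluster, CL10139Contig2, is no member and averaged 5.11 CPM in PB217 TPD trees against 14.2 CPM in month 36 controls. In PB260 it had 1.71, 0.303 and 0.106 CPM in severe TPD and 0.107, 0 and 0.227 CPM with ethephon alone, with overlap. PB260 controls had 0.614, 0.912 and 1.93 CPM.

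In PB217 the TPD trees held most members below their month 36 controls. edgeR's quasi-likelihood test with TMM normalization and Benjamini-Hochberg adjustment over the 29124 contigs tested called 61 of 205 tested members lower (29.8%) and 0 higher, where 4.43% of all contigs tested were called lower and 4.51% higher. The median log2 fold change was -1.19 over members and 0.06 over all contigs, and 202 of the 205 (98.5%) were negative, against 46.5% of all contigs. At an unadjusted p under 0.05, 128 members were lower (62.4%) and 1 higher, against 14.7% lower and 16.2% higher of all contigs. edgeR's exact test and DESeq2 called 107 and 111 members lower (52.2 and 54.1%) and 0 higher, against 8.34 and 9.02% lower of all contigs. On CPM by library total, all TPD libraries lay below all control libraries in 95 of the tested members (46.3%) and above in 1 (0.49%). Of all contigs tested 7.39% lay below and 38.8% above, so without TMM this background is not balanced.

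Among the other ethephon-low contigs, 507 of 1592 tested were called lower (31.8%) and 1 higher, with a median of -1.0. The share of lower calls was thus close in both sets, and nothing in it is particular to the members. The number of members called lower depended on the libraries: it was 19, 81 and 101 without TPD replicate 1, 2 and 3, and 0, 6 and 0 without control replicate 1, 2 and 3. The count of all contigs called lower moved with it, to 249, 1564 and 2486 without the TPD replicates and to 7, 86 and 0 without the controls. Where the count was 0, 110 and 109 members (53.9 and 53.4%) were lower at an unadjusted p under 0.05, against 11.5 and 10.5% of all contigs, and over these 6 fits the median log2 fold change ranged from -1.43 without TPD replicate 3 to -0.89 without TPD replicate 2. Members chosen without PB260 severe TPD replicate 2 (250 contigs, 187 of them shared with the 209) gave 78 lower of 245 tested (31.8%). With library totals in place of TMM the median of all contigs moved by 0.42 on the log2 scale, and members lay 1.27 below it, against 1.24 with TMM. That scaling called 46 members lower (22.4%) and 0 higher, against 2.48% lower and 19.7% higher of all contigs.

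**Figure D4:**
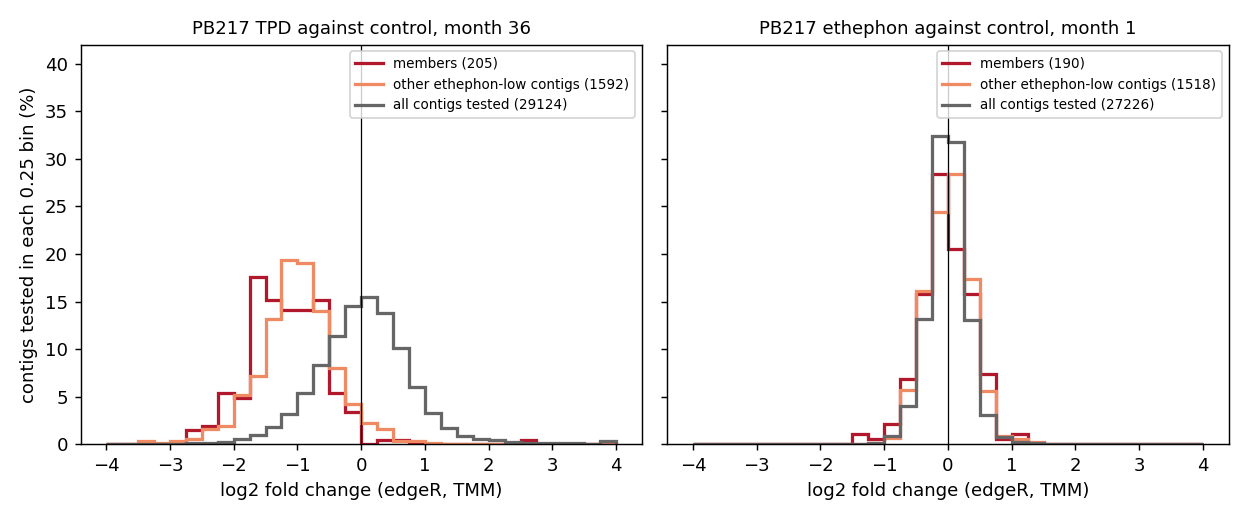
Share of tested contigs in each 0.25-wide bin of log2 fold change in PB217, TPD against control at month 36 (left) and ethephon against control at month 1 (right), for members, other ethephon-low contigs and all contigs tested, with values beyond 4 in the end bins. The median member lies at -1.19 on the left, near the -1.0 of the other ethephon-low contigs, and at -0.03 on the right.

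CL30040Contig1 had the largest fall among members whose PB217 groups did not overlap, with 2.94, 0.698 and 4.11 CPM in TPD trees against 18.4, 7.81 and 12.2 CPM in controls (log2 fold change -2.66, SE 0.60, adjusted p = 0.0332). In PB260 it rested on few pairs with ethephon alone, 2 over the 3 libraries, against 28 in severe TPD and 236 in controls. CL1Contig9826 (-2.56, SE 0.30, adjusted p = 0.00966) and CL2914Contig3 (-2.54, SE 0.51, adjusted p = 0.0254) followed. CL2914Contig3 had 2.72, 0.698 and 2.23 CPM in TPD trees against 5.24, 10.9 and 8.90 CPM in controls.

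Of the other abundant members, CL1Contig10652 fell by 2.38 on the log2 scale (adjusted p = 0.0162), CL1Contig12685 by 2.05 (0.0344), CL75Contig4 by 1.40 (0.0429) and CL1Contig16466 by 1.21 (0.0494). CL1Contig9964, CL2282Contig1, CL1Contig9774, CL645Contig1 and CL394Contig2 did not pass, with log2 fold changes of -1.74, -1.58, -1.43, -0.72 and -0.69. The K+ channel contig CL10139Contig1 fell by 1.87 (SE 0.35, adjusted p = 0.0214) and the ABC transporter contig CL1080Contig4 by 1.02 (SE 0.24, adjusted p = 0.0372). With library totals the transporter value was -0.61 (adjusted p = 0.0812), and over all alternatives its adjusted p ranged from 0.00413 to 0.146.

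Lower calls were more frequent at higher levels in members and in other contigs alike. In 4 equal groups by the PB260 control mean, 10 of 50 tested members at 2.005 to 3.98 CPM were lower in PB217 TPD, 12 of 51 at 4.007 to 9.93 CPM, 15 of 52 at 10.1 to 28.0 CPM and 24 of 52 at 28.1 to 866 CPM. Their median log2 fold changes were -0.86, -1.08, -1.16 and -1.44. These are 20, 23.5, 28.8 and 46.2% of the members tested, where 17.4, 27.2, 30.8 and 43.1% of the other ethephon-low contigs and 2.04, 2.89, 4.87 and 9.30% of all contigs at the same levels were called lower. More counts also give the test more precision, and this was not separated from size.

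Some members were exceptions at month 36. CL724Contig13, CL1Contig3572 and CL16389Contig1 were the tested members with a positive log2 fold change, 0.74, 2.59 and 0.36, and none of these passed the adjusted test. CL1Contig3572 had 2.88, 7.35 and 0.892 CPM in TPD trees against 0, 1.24 and 0.115 CPM in controls, and these ranges overlapped. CL15459Contig1, CL1Contig12450, CL32730Contig1 and CL5114Contig1 were too low in PB217 to be tested. CL15459Contig1 had 4.87, 7.32 and 7.04 CPM in PB260 severe TPD, 3.27, 3.29 and 1.41 CPM with ethephon alone and 5.66, 6.44 and 7.5 CPM in controls, but at most 1.52 CPM in any PB217 library.

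At month 1, ethephon gave no call in PB217. Of 190 members tested, 0 were lower and 0 higher by the quasi-likelihood test (0.0% of the 27226 contigs tested in either direction), and the median log2 fold change was -0.03. Without adjustment 19 members were lower (10%) and 18 higher (9.47%) at p under 0.05 in that test. Of all contigs 1023 were lower (3.76%) and 1198 higher (4.4%), so the share of members was larger in both directions. Of 1518 other ethephon-low contigs tested, 102 were lower and 127 higher. Shares above those of all contigs were therefore not particular to the members. The exact test and DESeq2 each called 2 members lower, CL1Contig17568 and CL2524Contig1, and 1 higher, CL1Contig3814. Of all 27226 contigs the exact test called 15 lower and 69 higher, and DESeq2 6 and 49. CL1Contig17568 had 6.08, 6.09 and 12.3 CPM in ethephon trees against 19.9, 15.1 and 27.7 CPM in controls, without overlap. CL1Contig3814 had 10.8, 7.47 and 12.5 CPM in ethephon trees against 5.75, 4.11 and 4.66 CPM in controls, the opposite direction to PB260. Among the annotated members, the log2 fold change was -0.40 (SE 0.29, adjusted p = 0.723) for CL1080Contig4 and 0.13 (SE 0.16, adjusted p = 0.828) for CL10139Contig1. These trees had had ethephon for a far shorter time than those of PB260, and clone and duration cannot be told apart.

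The difference between the month 36 TPD response and the month 1 ethephon response was itself tested in a fit of the 12 PB217 libraries. It was lower for 42 of 193 members (21.8%) and higher for 0, against 4.87 and 2.72% of all contigs. The other ethephon-low contigs gave 29.6% lower. At an unadjusted p under 0.05, 106 members were lower (54.9%) and 0 higher, against 15.2 and 13.2% of all contigs. The median difference was -1.15. DESeq2 called 66 lower (34.2%) and 0 higher, against 8.46 and 4.85% of all contigs. CL1Contig9826 (-2.64, adjusted p = 0.00781), CL30040Contig1 (-2.62, adjusted p = 0.0326) and CL1Contig10652 (-2.57, adjusted p = 0.0130) had the largest differences. The count was 78 without TPD replicate 3, 27 and 18 without month 36 control replicates 2 and 3, 22 and 13 without month 1 ethephon replicates 2 and 3, and 10 and 13 without month 1 control replicates 2 and 3. The count of all contigs called lower, 1349 with all libraries, moved with it, to 3027, 509, 508, 544, 390, 339 and 324 in that order.

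Between TPD at month 36 and ethephon at month 1 in PB217, 72 of 192 tested members were lower (37.5%) and 4 higher, against 12.1% lower and 12% higher of all contigs. Other ethephon-low contigs had 40.8% lower and 3.43% higher. The 2 groups were different trees at month 36 and month 1, so TPD and time in tapping cannot be told apart. CL9256Contig1 had 30.9, 18.2 and 48.8 CPM in TPD trees against 284, 213 and 304 CPM in month 1 ethephon trees (log2 fold change -3.51, SE 0.42, adjusted p = 0.00110). CL1Contig9774 (-3.46) and CL1Contig11175 (-3.36) came next. Untreated controls were also lower at month 36 than at month 1 in these contigs. Counted pairs over 3 libraries were 4063 against 17124 in CL9256Contig1, 679556 against 2767179 in CL1Contig9774 and 3037 against 10963 in CL1Contig11175. The 4 higher members were CL1087Contig5 (4.02, SE 0.76), CL1Contig19736 (1.72, SE 0.34), CL11815Contig2 (1.33, SE 0.31) and CL1Contig15934 (1.15). CL1087Contig5 was under 1 CPM in every month 1 ethephon library and passed the filter on low values only through TPD trees, so its call is no support. CL1Contig19736 was also higher in month 36 than in month 1 controls (log2 fold change 3.51). CL11815Contig2 and CL1Contig15934 had more pairs in month 36 controls as well (827 against 296 and 427 against 122). The lower count was 53 without month 1 ethephon replicate 2 and 43 without month 1 ethephon replicate 3, and the higher count was 1, 16 and 2 without TPD replicates 1, 2 and 3, 2 without month 1 ethephon replicate 1 and 2 without replicate 3. All contigs called lower fell as well, from 3474 to 1808 and 1309 without month 1 ethephon replicates 2 and 3. Without TPD replicates 1, 2 and 3, 0.526, 8.42 and 1.06% of members were higher, against 7.05, 12.5 and 13.2% of all contigs. Without month 1 ethephon replicates 1 and 3 it was 1.04 and 1.05% of members, against 5.97 and 3.72% of all contigs. Library totals gave 50 lower (26%) and 16 higher (8.33%), against 4.76% lower and 32.8% higher of all contigs, with the median of all contigs moved by 0.56.

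The PB217 controls of month 36 and month 1 were different trees harvested on different days, so time in tapping, tree and day cannot be told apart. Here 44 of 198 tested members were lower (22.2%) and 79 higher (39.9%) at month 36, against 17.2% lower and 18.1% higher of all contigs, and 17.5 and 33.4% of the other ethephon-low contigs. Of the 79, 6 were under 1 CPM in every month 1 control and passed the filter on low values only through month 36 libraries, so they had to differ. CL2914Contig3 (log2 fold change 4.03, SE 0.39) and CL1087Contig5 (3.90, SE 0.57), the largest values among members without overlap, were 2 of these 6 and are given as a description. CL1Contig19736 (3.51, SE 0.19) was next. CL1Contig19736 had 55.3, 58.6 and 61.1 CPM at month 36 against 4.91, 4.19 and 6.76 CPM at month 1. CL1Contig4818 (-2.61, SE 0.20), CL165Contig6 (-2.19, SE 0.18) and CL460Contig16 (-2.05, SE 0.23) fell most. CL165Contig6 had 26.3, 16.3 and 20.5 CPM at month 36 against 88.6, 97.6 and 109 CPM at month 1. The adjusted p was at most 9.11e-05 for CL1Contig19736, CL1Contig4818, CL165Contig6 and CL460Contig16. The K+ channel contig CL10139Contig1 rose (0.73, adjusted p = 0.0282), and the ABC transporter contig CL1080Contig4 fell (-1.13, adjusted p = 0.00265).

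**Figure D5:**
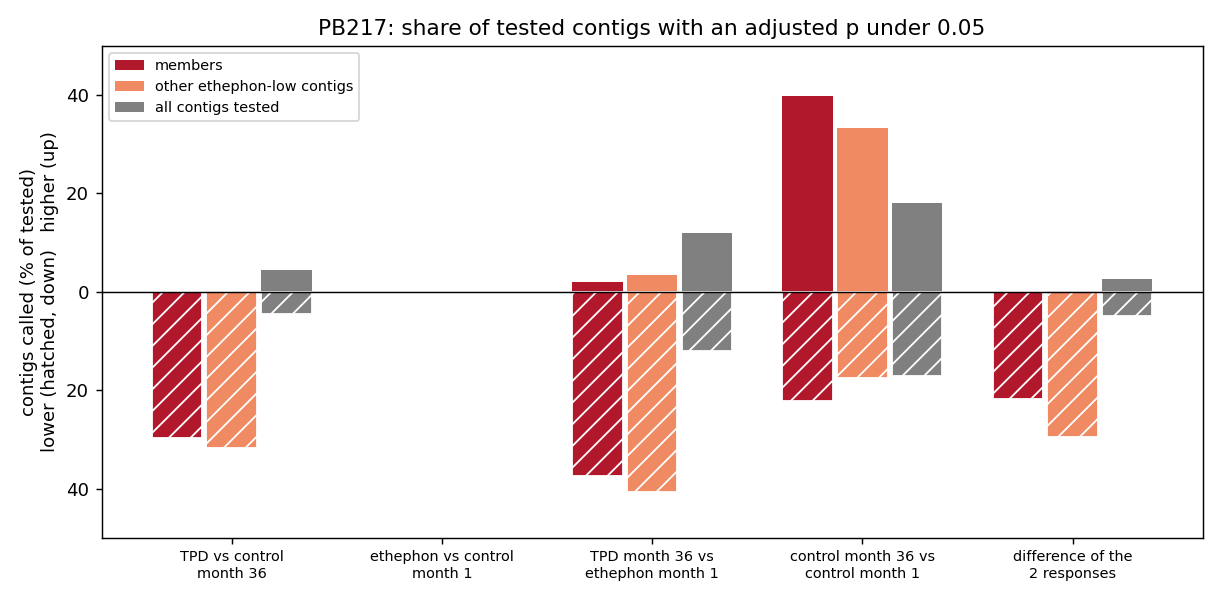
Share of tested contigs called higher (bars up) or lower (hatched bars down) by edgeR's quasi-likelihood test at an adjusted p under 0.05 in the 5 PB217 comparisons, for members, other ethephon-low contigs and all contigs tested. Lower calls reached 29.8% of members for TPD against control at month 36 and 37.5% against ethephon at month 1, no contig was called for ethephon at month 1, and higher calls (39.9%) led between the controls.

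A group of 15 members was nearly silent at month 1 in PB217, with a mean under 1 CPM in both month 1 groups, and had at least 1 CPM in month 36 controls. They were picked by these levels, so no test is given. CL1087Contig5 had 4.54, 4.20 and 1.49 CPM in month 36 controls against 0, 0.259 and 0.40 CPM at month 1, and CL1087Contig8 of the same cluster had 3.84, 3.08 and 2.53 CPM against 0.359, 0.216 and 0.40 CPM. In PB260 controls CL1087Contig5 had 5.57, 5.95 and 6.03 CPM. Both were chosen for description after their values were seen.

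Levels in month 36 controls were also set against those of PB260. The PB217 mean was a median 1.33-fold of the PB260 mean over members, 0.789-fold over the other ethephon-low contigs and 0.722-fold over the 24813 contigs, and 146 members were higher in PB217. The clones also differ in the label code, S_D2 or T_D1, and no test is given because the rule chose members by PB260 control levels. In 16 members the PB217 control mean was at least 5-fold that of PB260. Of these 16, 11 were among the 30 members whose severe TPD mean exceeded control in PB260. Both ratios are taken over the PB260 control mean, so a low value there favours both, and nothing is read from the overlap.

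CL1Contig9774 was the most abundant member in PB217. It had 559, 250 and 340 CPM in PB260 severe TPD, 141, 123 and 149 CPM with ethephon alone and 494, 358 and 344 CPM in controls. In PB217 it had 7790, 3358 and 6780 CPM in TPD trees, 14055, 10844 and 12322 CPM in month 36 controls, 39820, 53250 and 41922 CPM in month 1 ethephon trees and 58496, 48328 and 33691 CPM in month 1 controls, which is 3.37 to 5.85% of all pairs at month 1. The clones and the 2 sampling times of PB217 did not overlap. Such a share lowers the CPM of all other contigs in those libraries, and the 100 most abundant contigs took 33.8 to 46.0% of pairs at month 1 and 18.4 to 29.3% in TPD trees.

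In some members every PB260 severe TPD library lay above every control. CL7994Contig1 had 103, 73.1 and 106 CPM in PB260 severe TPD, 8.20, 18.9 and 13.1 CPM with ethephon alone and 23.2, 35.8 and 28.9 CPM in controls. In PB217 it had 270, 153 and 260 CPM in TPD trees against 516, 524 and 468 CPM in month 36 controls (log2 fold change -1.53, SE 0.30, adjusted p = 0.0243). CL9256Contig1 had 13.3, 7.88 and 11 CPM in severe TPD, 0.911, 1.12 and 0.136 CPM with ethephon alone and 5.22, 6.22 and 7.85 CPM in PB260 controls, against 30.9, 18.2 and 48.8 CPM in PB217 TPD trees and 85.3, 54.6 and 82.2 CPM in their controls. The severe TPD libraries of CL9256Contig1 barely cleared the controls. CL5441Contig2 and CL1087Contig8 were the other members with every severe TPD library above every PB260 control, at 259 and 122% of control.

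The 2 members of cluster CL9837 resembled each other in both clones. CL9837Contig2 had 2.71, 11 and 10.9 CPM in severe TPD, 0.643, 0.0621 and 0.0908 CPM with ethephon alone and 3.25, 3.00 and 2.53 CPM in controls, and CL9837Contig3 reached 254% of its control mean. In PB217 TPD trees CL9837Contig2 had 52.8, 7.44 and 10.9 CPM against 37.5, 16.5 and 37.1 CPM in controls, with overlap and no call. PB217 TPD replicate 1 was the high library for both contigs.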

How the data were processed

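Latex polyA RNA of 21 trees was sequenced on stranded paired-end libraries. Per the study's methods the authors used the fastx toolkit for trimming and sortMeRNA against ribosomal sequence, then aligned to the PB 260 reference transcriptome with Bowtie2 in local mode, while the submitters' processing notes also name TopHat2. The deposited values are raw counts of read pairs with both mates on 1 contig, multi-hits removed.

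Here the counts were scaled to CPM by library total for the selection rule and for all levels shown. PB217 comparisons used edgeR 4.0.16 in R 4.3.3: TMM normalization, a minimum CPM of 1 in 3 of 6 (or 6 of 12) libraries, the quasi-likelihood F test and Benjamini-Hochberg adjustment over all contigs tested, with a threshold of 0.05. SE is the log2 fold change divided by the square root of F. Samples were grouped by their titles. Each library was a separate tree. Counted pairs ran from 16102321 to 23126417 a library, and replicate libraries differed by 8.19 to 100 times their counting variance, so no intervals of counting error are given.

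Named contigs were the annotated members, the 10 with the highest PB260 control means, the 3 called members with the largest fold change in each direction and comparison whose groups did not overlap, and the contigs next to each threshold. Others were named after their values were seen. Members, lists and tests were chosen with earlier results of these data known. Alternatives were other scaling, no filter, DESeq2 1.42.0, edgeR's exact test, a fit of all 12 PB217 libraries, a replicate block, leaving out each library, and other settings of the rule. The scripts were tested on simulated data. Annotation came from a shortened supplementary table, and contig sequences were not used here. The supplement's tables of the authors' own comparisons were not used.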

Additional observations from a re-analysis of the deposited data

Results flagged for a closer look

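The PB217 response differed between month 36 (TPD against control) and month 1 (ethephon against control) by the test of the difference itself: 42 of 193 members (21.8%) were called lower in that difference by edgeR's quasi-likelihood test, against 4.87% of all contigs and 29.6% of the other ethephon-low contigs, so the call is not particular to the members. In 2 members every severe TPD library lay above every control in PB260 and every TPD library below every month 36 control in PB217. This difference was not tested because the rule had used the PB260 libraries. Of the contigs with a PB260 control mean of at least 2 CPM, 18.6% lay above in PB260. In PB217, 8.01% of those tested lay below. The share with both is not given, and nothing is read from the count. CL7994Contig1 lay at 322% of control in PB260 severe TPD, with every library above every control, and at 45.3% of control in PB217 TPD, with every library below. CL9256Contig1 lay at 167% in PB260 severe TPD and at 44.1% in PB217 TPD, again without overlap in either clone. Its PB260 severe TPD libraries barely cleared the controls. Groups of 3 libraries are too small for a check of single libraries far from the others.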

How the results depend on the processing

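For PB217 TPD against control at month 36, the 61 lower members (29.8% of those tested) became 93 with members chosen on TMM-normalized CPM (31.2%), 132 (63.2%, and 2 higher) without a count filter, 111 with DESeq2 (54.1%), 107 with the exact test (52.2%) and 113 in a fit of all 12 PB217 libraries (58.5%), where 4.43, 4.10, 9.02, 8.34 and 13.2% of all contigs were lower, and from 0 to 101 leaving out single libraries. For ethephon at month 1, no filter gave 8 lower (3.85%) and 2 higher (0.96%), against 0.239 and 0.464% of all contigs. DESeq2 and the exact test gave 2 lower (1.05%) and 1 higher (0.526%) each. Of all contigs DESeq2 called 0.0220% lower and 0.180% higher, and the exact test 0.0551 and 0.253%. For TPD at month 36 against ethephon at month 1, the 4 higher members became 12 with members chosen on TMM-normalized CPM, 7 with members chosen without PB260 severe TPD replicate 2, 16 with library totals, 21 without a filter, 7 with DESeq2, 7 with the exact test and 8 in the fit of 12 libraries, and 1 to 16 leaving out libraries, where the lower count ran from 43 to 88. Between the PB217 controls, TMM-chosen members gave 123 higher (42.3% of those tested against 39.9%), where 18.1% of all contigs were higher. The fit of 12 libraries gave 26 lower (13.5%) and 52 higher (26.9%), against 12.1 and 13.8% of all contigs. For the difference of the responses, the 42 lower (21.8%) became 76 with TMM-chosen members (26.4%), 110 (52.6%, and 1 higher) without a filter and 66 with DESeq2 (34.2%), where 4.87, 3.74 and 8.46% of all contigs were lower, and 10 to 78 leaving out libraries. The rule itself gave 394 contigs on TMM-normalized CPM, 64 with folds of at least 3, and 200 to 308 leaving out libraries. Leaving out PB260 severe TPD replicate 2 before choosing members was added after seeing the data. Of the single contigs named, no direction reversed: 384 values kept their side of the threshold, 52 lost it and 20 gained it. The causes were not tested.

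Replicate numbers did not pair the trees: the correlation of deviations of same-numbered libraries ran from -0.45 to 0.30. With the replicate block, 100 members were lower (48.8%) and 1 higher in PB217 TPD against control at month 36. Of all contigs 5.49% were lower and 4.54% higher. No other count moved by more than 1.5-fold: 0 and 0 for ethephon at month 1, 70 lower and 3 higher against ethephon at month 1, 42 and 81 between controls, and 43 and 0 for the difference. For the latter comparisons the shares of all contigs were 7.77 and 6.66%, 15.5 and 17.1%, and 3.49 and 1.75%. Low counts limit members near 2 CPM most.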
